A study of Mus musculus with 20 samples.

Results

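The expression of 4 genes of the BAFF and APRIL axis was measured cell class by cell class in the spleens and lymph nodes of mice with a disease like chronic lymphocytic leukemia (CLL). The genes were the ligands Tnfsf13b (BAFF) and Tnfsf13 (APRIL) and the receptors Tnfrsf13b (TACI) and Tnfrsf13c (BAFFR). They were chosen by name from the 31053 genes in the deposited matrices, and all 4 were detected. BAFF binds TACI, BAFFR and another receptor, BCMA (Tnfrsf17), while APRIL binds TACI and BCMA. Through BAFFR, BAFF sustains the survival of mature B cells, in part by the alternative NF-κB pathway. TACI restrains B-cell numbers and takes part in antibody responses, and BCMA serves long-lived plasma cells. Both ligands are known as products of myeloid cells, and both have been studied as survival signals that CLL cells receive from their surroundings.

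The data were 20 single-cell RNA-sequencing (scRNA-seq) libraries of unselected live cells from 13 mice. Spleens came from 5 mice of the Eµ-PRMT5 genotype, 4 of Eµ-TCL1 and 4 of Eµ-PRMT5/TCL1. Lymph nodes came from 3 of the Eµ-TCL1 and all 4 of the Eµ-PRMT5/TCL1 mice, so that 7 mice gave both tissues. Counts of Xist and of Y-chromosome genes marked Eµ-PRMT5 spleen 5, Eµ-TCL1 spleens 2, 3 and 4 and Eµ-PRMT5/TCL1 spleen 4 as male. The same counts marked the other spleens as female. Sex was thus unevenly spread over the genotypes, and the main comparisons were not adjusted for it. All mice had the labelled strain C57BL/6N and carried human PRMT5 (an arginine methyltransferase), human TCL1 (an oncogene) or both, under an immunoglobulin heavy chain promoter and enhancer active in B cells. Every mouse therefore carried at least 1 transgene, and no transgene-free mouse was analysed here. Tissues were taken when a mouse met the early removal criteria (ERC), so age was not matched, and ages were not given in the sources used here. The lymph nodes were sub-mandibular. The human transgenes are not among the mouse genes of the matrices, so the genotype labels were not checked against them, and the founder line was not given for each Eµ-PRMT5 mouse, although Eµ-PRMT5 spleen 3 is labelled with the name of a founder, E4474. The mouse of Eµ-PRMT5/TCL1 spleen 1 and node 2 has a suffix, RT, that its labels do not explain.

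Cells were assigned to classes by raw counts of marker genes that include none of the 4 members. Of 84231 cells kept, 38480 were B-like, 28104 T-like, 3810 plasma-like, 2749 neutrophil-like and 1400 monocyte/macrophage-like. The B-like class was not split into CLL-like and other B cells, so their mix may differ between libraries. A library was used for a class when it held at least 20 cells of it. Libraries held 688 to 7631 kept cells with a median of 3553 to 14285 unique molecular identifiers (UMIs, each standing for 1 captured RNA molecule) per cell, and levels are given as CPM, a gene's UMIs scaled to a fixed total of UMIs of the class in each library. Plasma-like cells were separated from B-like cells by a limit on the share of plasma marker UMIs, near which 1086 cells lay, so the plasma-like class is a range and not a sharply bounded type. No pair of libraries shared more than 1.34% of the cell barcodes of the smaller one. The B-like cells of Eµ-PRMT5 spleen 4 stood apart, with 8 B-cell markers summing to 1573 CPM (4338 to 7548 CPM in the other spleens), below their summed plasma markers of 2045 CPM, and with the largest median depth.

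Each member had its own order over the classes (the plot of levels by class and library). In spleens, Tnfsf13b was highest in neutrophil-like cells, Tnfsf13 in monocyte/macrophage-like cells, Tnfrsf13b in plasma-like cells and Tnfrsf13c in B-like cells. Neighbouring classes in each order were compared within libraries by an exact two-sided sign-flip permutation test on log2(CPM + 10), adjusted by Benjamini-Hochberg over 16 tests in spleens.

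**Figure D1:**
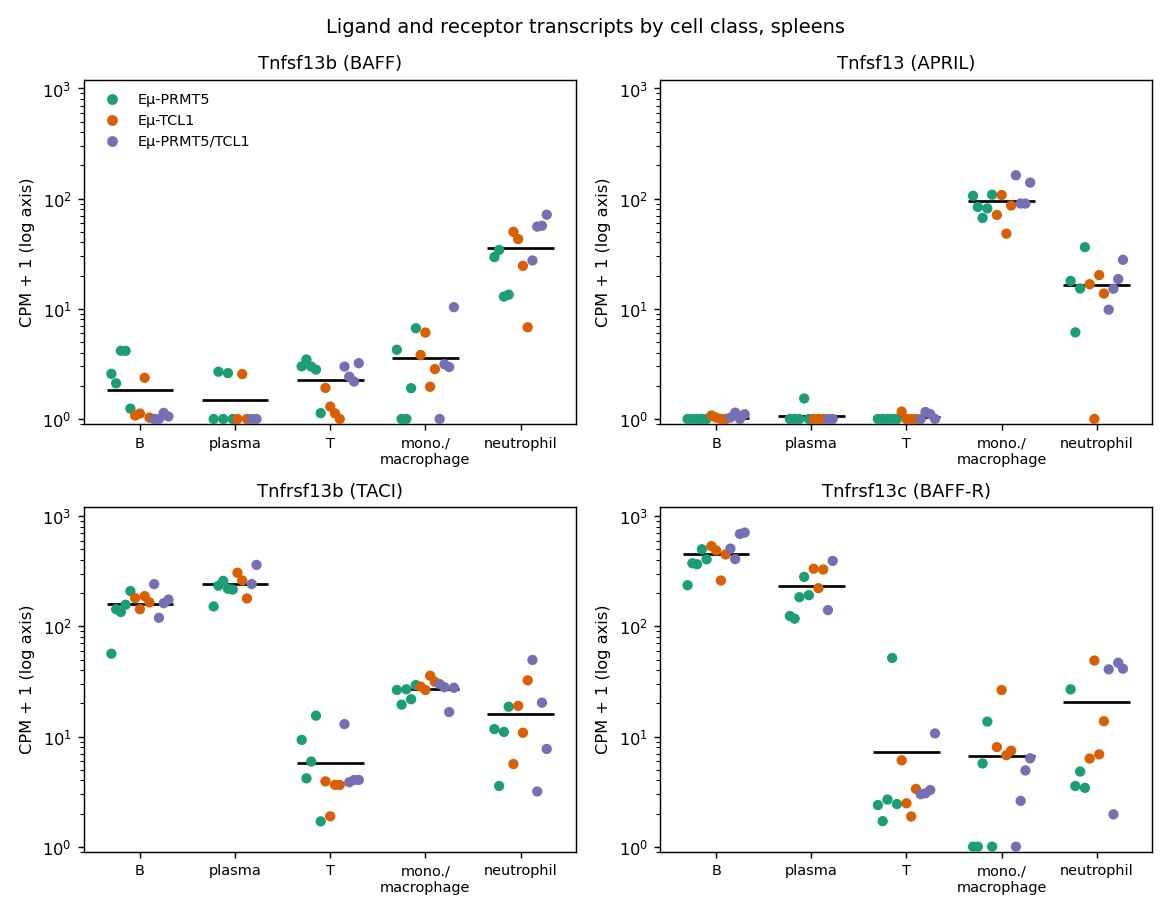
Level of each gene (CPM + 1, logarithmic axis) in each cell class, with 1 point per library and colors by genotype. In spleens, neutrophil-like cells held Tnfsf13b at 5.80 to 70.5 CPM, monocyte/macrophage-like cells held Tnfsf13 at 47.1 to 162 CPM, and the receptors were high in B-like and plasma-like cells.

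Tnfsf13b lies on chromosome 8 (GRCm38, chr8:10006467-10039072, plus strand) and encodes the ligand of all 3 receptors. In neutrophil-like cells of the spleens its level ranged from 5.80 to 70.5 CPM with a median of 30.9 and a mean of 34.5 ± 20.1 CPM (SD, n = 12). Monocyte/macrophage-like cells came next at 2.61 ± 2.72 CPM (SD, n = 13), with 3 libraries at 0. Neutrophil-like cells were higher in 12 of 12 libraries, by 1.72 on the log2(CPM + 10) scale (exact permutation test, adjusted p = 0.0026). Lower in the order, T-like cells had 1.27 ± 0.890 CPM (SD, n = 13), B-like cells 0.848 ± 1.17 CPM (SD, n = 13) and plasma-like cells 0.485 ± 0.782 CPM (SD, n = 10). None of these lower neighbours differed beyond the spread between libraries, and free RNA, taken from barcodes with 1 to 100 UMIs, held 0 to 4.10 CPM. In lymph nodes only 2 libraries had enough neutrophil-like cells, with 4.09 CPM in Eµ-TCL1 node 3 and 38.5 CPM in Eµ-PRMT5/TCL1 node 3. Those values rest on 2 and 28 UMIs.

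Tnfsf13 lies on chromosome 11 (chr11:69682846-69685784, minus strand) and encodes APRIL, which does not bind BAFFR. In monocyte/macrophage-like cells of the spleens it ranged from 47.1 to 162 CPM with a median of 89.2 and a mean of 94.7 ± 30.4 CPM (SD, n = 13). Neutrophil-like cells had 15.6 ± 9.26 CPM (SD, n = 12), lower in 12 of 12 libraries by a mean of 2.06 on the log2(CPM + 10) scale (exact permutation test, adjusted p = 0.0026). Neutrophil-like cells in turn exceeded plasma-like cells in 9 of 9 libraries (exact permutation test, adjusted p = 0.0078). In B-like, T-like and plasma-like cells of the spleens there were 6, 4 and 1 UMIs of Tnfsf13 in all, and the means were at most 0.0536 CPM. In the 3 lymph nodes with enough monocyte/macrophage-like cells Tnfsf13 was at 84.3, 140 and 107 CPM, inside the range of the spleens. The 2 ligands thus led in different myeloid classes.

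The level of Tnfsf13 is uncertain, because 983 of its 1637 exonic bases, and all of the last 500 to which 3′ reads map, also belong to Tnfsfm13, a fusion transcript of Tnfsf12 and Tnfsf13 on the same strand. Reads from shared bases cannot be assigned to 1 of the 2 genes. Spleen monocyte/macrophage-like cells held 1168 UMIs of Tnfsf13, 87 of Tnfsfm13 and 86 of the overlapping antisense gene Tnfsf13os. Comparisons of Tnfsf13 between classes and genotypes share this limit.

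Tnfrsf13b (chr11:61126755-61149372, plus strand) was highest in plasma-like cells. In spleens these had 151 to 360 CPM, a median of 237 and a mean of 242 ± 60.0 CPM (SD, n = 10), and B-like cells had 55.4 to 241 CPM, a median of 161 and a mean of 159 ± 44.8 CPM (SD, n = 13). Plasma-like cells were higher in 10 of 10 libraries, by 0.57 on the log2(CPM + 10) scale (exact permutation test, adjusted p = 0.0052). In lymph nodes the means were 290 ± 63.5 CPM (SD, n = 5) in plasma-like and 188 ± 62.7 CPM (SD, n = 7) in B-like cells. The same direction was seen there, but 5 nodes cannot give an exact p below 0.0625, which was the value found.

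TACI transcript was also present in myeloid cells. Monocyte/macrophage-like cells of the spleens had 15.7 to 34.6 CPM of Tnfrsf13b with a median of 26.7 and a mean of 25.8 ± 5.00 CPM (SD, n = 13), below B-like cells in 13 of 13 libraries (exact permutation test, adjusted p = 0.0026). Neutrophil-like cells had 15.1 ± 13.4 CPM (SD, n = 12), lower than monocyte/macrophage-like cells in 9 of 12 libraries (exact permutation test, adjusted p = 0.020). This call was lost when cells marked as doublets were kept (adjusted p = 0.0734) and when 50 cells per class were asked for (adjusted p = 0.075). T-like cells were lowest at 4.73 ± 4.23 CPM (SD, n = 13), below neutrophil-like cells in 10 of 12 libraries (exact permutation test, adjusted p = 0.0052). B-cell RNA was also unequal over these classes. Over libraries of both tissues, the B-cell marker Cd79a had means of 107 CPM in neutrophil-like, 43.3 CPM in monocyte/macrophage-like and 12.6 CPM in T-like cells. The part of B-cell RNA in the receptor levels of these classes was not tested.

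Tnfrsf13c (chr15:82221743-82224369, minus strand) had the opposite order in the B lineage. B-like cells of the spleens had 235 to 709 CPM, a median of 449 and a mean of 455 ± 141 CPM (SD, n = 13), and plasma-like cells had 116 to 392 CPM, a median of 206 and a mean of 230 ± 97.2 CPM (SD, n = 10). B-like cells were higher in 10 of 10 libraries, by 0.93 on the log2(CPM + 10) scale (exact permutation test, adjusted p = 0.0052). Neutrophil-like cells had 19.4 ± 19.01 CPM (SD, n = 12), and monocyte/macrophage-like cells had 5.61 ± 7.02 CPM (SD, n = 13) with 4 libraries at 0. These 2 classes did not differ beyond the spread (exact permutation test, adjusted p = 0.0813), but did when doublet-marked cells were kept (adjusted p = 0.00156). In T-like cells 12 of 13 spleens were between 0.705 and 9.67 CPM and the other one, Eµ-PRMT5 spleen 4, was at 50.6 CPM. Lymph nodes had 471 ± 156 CPM (SD, n = 7) in B-like and 261 ± 83.8 CPM (SD, n = 5) in plasma-like cells.

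From B-like to plasma-like cells, then, Tnfrsf13b was higher and Tnfrsf13c lower as a share of the RNA of the class. Plasma-like cells held much immunoglobulin RNA, with a mean of 22550 CPM of Igkv19-93 alone, and its part in these differences was not tested. The share of spleen cells with any Tnfrsf13c UMI was close, 84.7% in B-like and 82.8% in plasma-like cells. However, plasma-like cells were deeper, with a median library depth of 14830 UMIs per cell against 7828 in B-like cells, which raises such a share. Shares at equal depth are given below. The third receptor, Tnfrsf17 (chr16:11313812-11320074, plus strand), was nearly confined to plasma-like cells, with 35.7 ± 25.6 CPM (SD, n = 10) in spleens, a range of 4.82 to 91.4 CPM, and 29.0 ± 4.25 CPM (SD, n = 5) in nodes. B-like cells of the spleens held 68 UMIs of it in all. Monocyte/macrophage-like cells of the spleens held 0 UMIs, which allows a level of up to 0.227 CPM by counting error alone.

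Each cell was also thinned to 1000 UMIs to remove differences in depth, and the share of cells with a UMI was counted. Like CPM, this measures a gene's part of the RNA, so it is no separate check of the order of classes. In spleens Tnfrsf13c was found in 35.7% of B-like, 25.1% of plasma-like and 0.218% of T-like cells (84.7%, 82.8% and 1.29% without thinning, and 35.4% of B-like cells thinned without Eµ-PRMT5 spleen 4). Tnfrsf13b was found in 14.7% of B-like, 24.3% of plasma-like, 2.57% of monocyte/macrophage-like and 0.281% of T-like cells (62.3%, 87.9%, 20.98% and 1.47% without thinning). T-like cells are given for comparison as a class in which little of the B-cell receptors would be looked for, and their median depths of 3012 to 9609 UMIs overlapped those of monocyte/macrophage-like cells, 5826 to 14040. Without thinning, 55.9% of spleen B-like cells held both receptors, 28.8% only Tnfrsf13c, 6.40% only Tnfrsf13b and 8.93% neither. Among plasma-like cells 74.5% held both. At these depths a cell without a UMI may still express the gene.

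Because B cells are abundant and their RNA is found free in the droplets, the mix of the 2 receptor transcripts was compared between classes (the plot of receptor balance). The measure is the share of Tnfrsf13b among the UMIs of both receptors, and it is read across classes, not as a comparison of the levels of 2 genes. Free RNA of the spleens held 22.6% to 35.6% Tnfrsf13b, with 29.5% over all, and B-like cells held 25.4%. Monocyte/macrophage-like cells held 85.6%, from 345 UMIs of Tnfrsf13b and 58 of Tnfrsf13c, and Tnfrsf13b was the larger part in 12 of 13 spleens. The other spleen, Eµ-TCL1 spleen 2, had 5 UMIs of each. It also had the highest summed level of the 8 B-cell markers in monocyte/macrophage-like cells, 895 CPM against 5.66 to 150 CPM in the other 12 spleens. The Tnfrsf13b share in monocyte/macrophage-like cells was thus above that of free RNA in every spleen. With spleens summed, neutrophil-like cells, at 49.1%, and T-like cells, at 53.0%, lay between. Single spleens ran from 14.3% to 87.9% in neutrophil-like and from 22.2% to 85.7% in T-like cells, so this did not hold in every spleen. Plasma-like cells, also rich in both receptors, held 49.1% with spleens summed and 35.3% to 66.7% in single spleens. That range overlaps the lower monocyte/macrophage-like values, and the part of plasma-like RNA in the other classes was not tested.

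**Figure D2:**
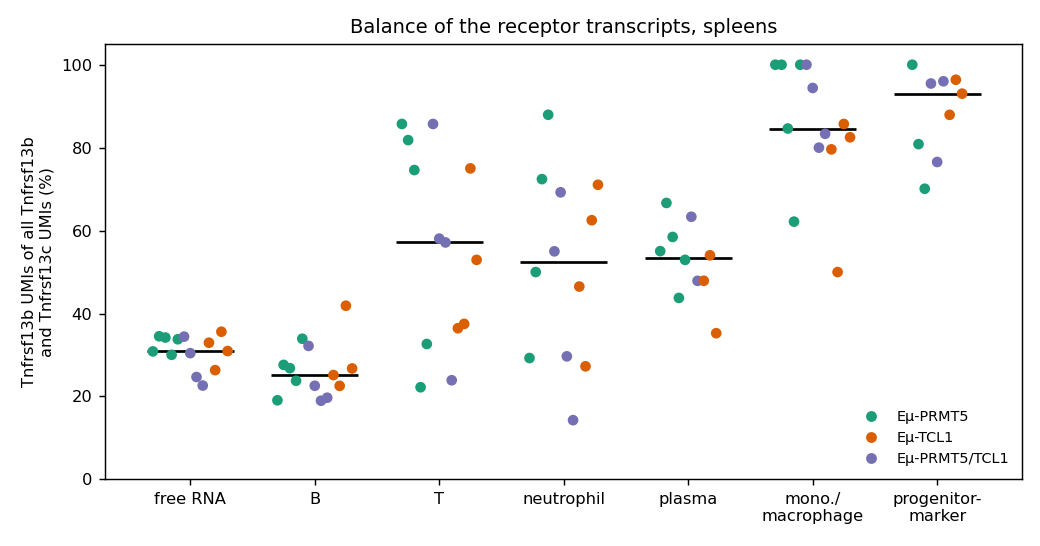
Percent of Tnfrsf13b among the UMIs of Tnfrsf13b and Tnfrsf13c in each cell class, with 1 point per library. In spleens, monocyte/macrophage-like cells lay at 50% to 100%, while free RNA lay at 22.6% to 35.6% and B-like cells at 18.97% to 41.9%.

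Cells with at least 10 UMIs of Mpo, Elane, Prtn3 and Ctsg, granule genes of myeloid progenitors, were left out of every class by rule. There were 1837 such progenitor-marker cells in the spleens, and much of the APRIL transcript lay in them. The shares of the myeloid classes depend on that rule. With all spleens summed, these cells held 61.4% of the Tnfsf13 UMIs, against 25.3% in monocyte/macrophage-like and 8.48% in neutrophil-like cells. Spleen by spleen the gap was small, with a median share of 45.2% (11.1% to 73.9%) in progenitor-marker and 40.9% (9.97% to 70.4%) in monocyte/macrophage-like cells. In the 9 spleens with at least 20 such cells the level was 72.3 to 146 CPM, with a mean of 88.6 ± 22.9 CPM (SD, n = 9). That is a level like the one in monocyte/macrophage-like cells, 94.7 CPM. The 1837 progenitor-marker cells of the spleens held 35451282 UMIs of all genes. The 1244 monocyte/macrophage-like cells held 13202284, so they were fewer and also had fewer UMIs per cell. Progenitor-marker cells carried Tnfrsf13b at 41.2 ± 13.3 CPM (SD, n = 9), with Tnfrsf13b the larger part of both receptors in 9 of 9 spleens. In lymph nodes, monocyte/macrophage-like cells held 58.5% and progenitor-marker cells 23.8% of the Tnfsf13 UMIs.

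**Figure D3:**
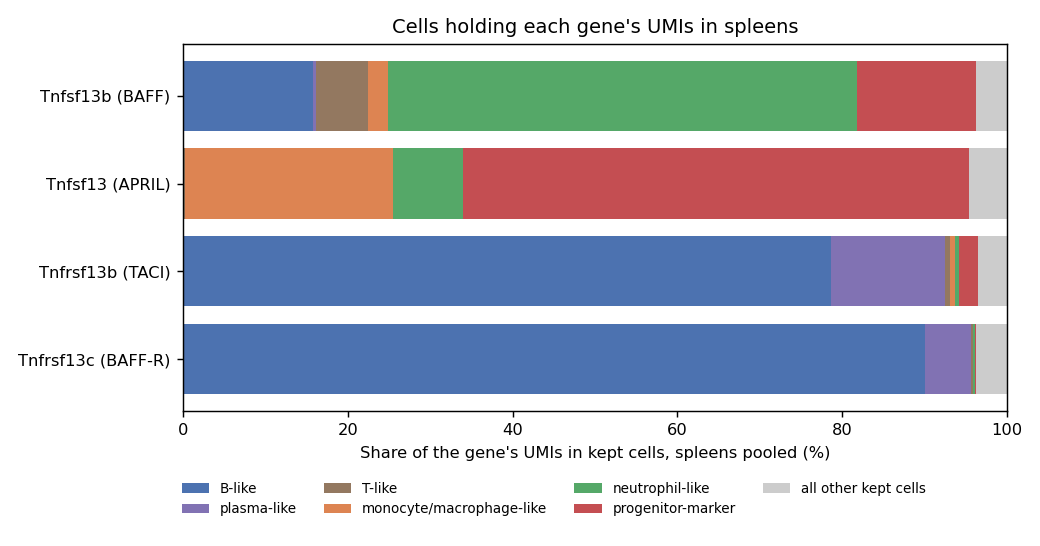
Percent of each gene's UMIs that fell in each cell class, summed over the libraries of a tissue. In spleens the progenitor-marker cells held 61.4% of Tnfsf13, neutrophil-like cells 57.0% of Tnfsf13b, and B-like cells 78.6% of Tnfrsf13b and 90.1% of Tnfrsf13c.

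With all spleens summed, 57.0% of Tnfsf13b UMIs were in neutrophil-like, 15.8% in B-like, 14.4% in progenitor-marker, 6.30% in T-like and 2.42% in monocyte/macrophage-like cells. Single spleens varied widely, and the neutrophil-like share ran from 0 to 78.0% with a median of 52%. The progenitor-marker share ran from 0 to 26.9%, and its median was below that of monocyte/macrophage-like cells, 1.47% (0 to 25%). The share of B-like cells ran from 0 to 53.9% of a spleen's UMIs with a median of 12.5%, and 139 of their UMIs came from Eµ-PRMT5 spleen 4. Without that spleen the summed share was 6.87%. In lymph nodes 34.1% of Tnfsf13b UMIs were in neutrophil-like and 28.4% in T-like cells, but the first share was 4.17% without Eµ-PRMT5/TCL1 node 3. For the receptors, B-like cells held 78.6% and plasma-like cells 13.9% of Tnfrsf13b in spleens, and 90.1% and 5.62% of Tnfrsf13c.

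Summed over all kept cells of a library, both ligands tended to be lower in the lymph node than in the spleen of the same mouse, a sum in which fewer cells of a type and less RNA per cell cannot be told apart. Tnfsf13 was lower in the node in 7 of 7 mice, with 0.378 to 3.03 CPM (median 0.797) in nodes and 0.994 to 34.6 CPM (median 6.05) in their spleens. Tnfsf13b was lower in 6 of 7 mice, with a median of 0.326 CPM in nodes and 1.64 CPM in spleens. The share of cells that were monocyte/macrophage-like, neutrophil-like or progenitor-marker ranged from 0.105% to 3.32% in the 7 nodes and from 0.580% to 38.04% in the 13 spleens. Within monocyte/macrophage-like cells Tnfsf13 was at 84.3 to 140 CPM in the nodes and at 47.1 to 162 CPM in the spleens. The receptors were lower in the node in 3 (Tnfrsf13b) and 5 (Tnfrsf13c) of 7 mice.

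To ask whether the transgenes went with a change of the axis, summed counts per library and class were fitted over all genes with edgeR's quasi-likelihood test and adjusted by Benjamini-Hochberg. In B-like cells of the spleens, Tnfrsf13b was at 55.4, 142, 134, 156 and 208 CPM in the 5 Eµ-PRMT5 mice. It was at 179, 142, 187 and 164 CPM in Eµ-TCL1 and at 241, 119, 161 and 174 CPM in Eµ-PRMT5/TCL1 mice. The groups overlapped, and the lowest value came from Eµ-PRMT5 spleen 1. The differences were -0.32 ± 0.35 (log2, SE) for Eµ-PRMT5 against Eµ-TCL1, -0.05 ± 0.37 for Eµ-PRMT5/TCL1 against Eµ-TCL1 and 0.27 ± 0.35 for Eµ-PRMT5/TCL1 against Eµ-PRMT5, with adjusted p of 0.659, 0.998 and 0.823. The difference of -0.05 was smaller than its SE and of the opposite sign to the group means, 174 CPM in Eµ-PRMT5/TCL1 and 168 CPM in Eµ-TCL1 spleens.

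Tnfrsf13c in the same cells was at 235, 372, 365, 500 and 405 CPM in Eµ-PRMT5 mice. Eµ-TCL1 mice had 533, 488, 260 and 449 CPM, and Eµ-PRMT5/TCL1 mice had 507, 406, 688 and 709 CPM. The 2 highest values were both from Eµ-PRMT5/TCL1 mice, but the groups overlapped. The difference between Eµ-PRMT5/TCL1 and Eµ-PRMT5 was 0.55 ± 0.32 (log2, SE; edgeR, adjusted p = 0.587), and the other 2 were 0.33 ± 0.34 and -0.23 ± 0.32. These 3 comparisons share groups and are not independent of one another. With Eµ-PRMT5 spleen 4 left out, Eµ-PRMT5 differed from Eµ-TCL1 by -0.48 for Tnfrsf13b and -0.50 for Tnfrsf13c, and Eµ-PRMT5/TCL1 from Eµ-PRMT5 by 0.44 and 0.83, with edgeR's adjusted p at 0.155 or above.

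**Figure D4:**
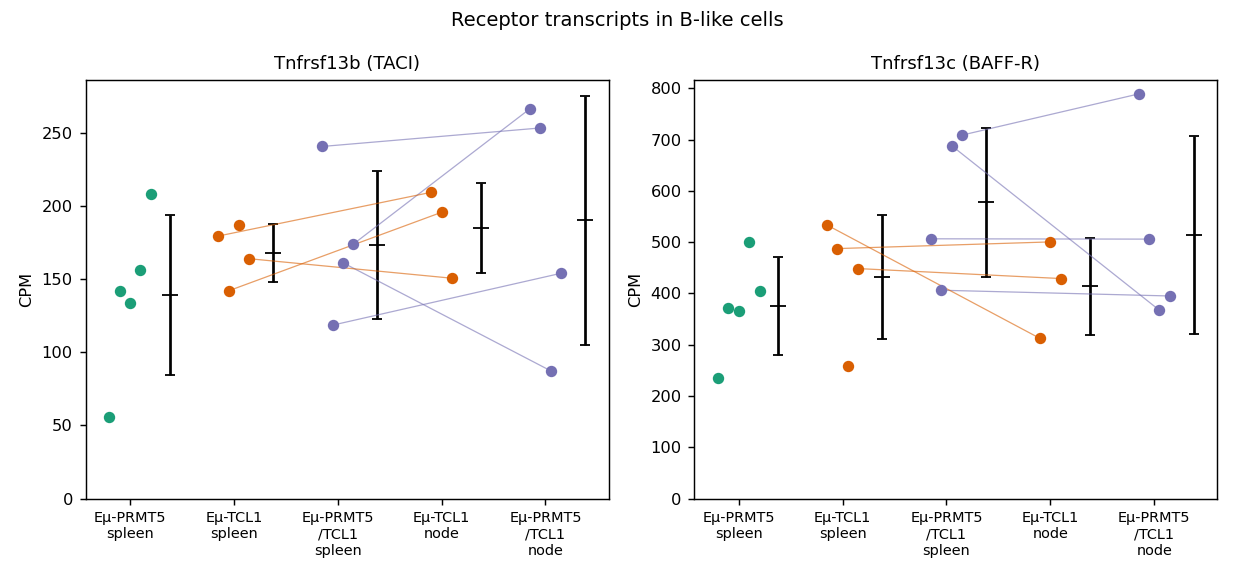
Tnfrsf13b and Tnfrsf13c in B-like cells (CPM), with 1 point per library in the 5 groups and lines joining the spleen and lymph node of 1 mouse. Tnfrsf13b lay between 55.4 and 266 CPM and Tnfrsf13c between 235 and 789 CPM, with overlap between all groups.

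Few genes were called by these tests. In B-like cells of the spleens, edgeR called 0.00842% of the 11880 genes tested between Eµ-PRMT5 and Eµ-TCL1, and 0.0% in each of the 2 comparisons of Eµ-PRMT5/TCL1. An unadjusted p under 0.05 was found for 2209 genes (18.6%) between Eµ-PRMT5 and Eµ-TCL1, 597 (5.03%) between Eµ-PRMT5/TCL1 and Eµ-TCL1 and 1154 (9.71%) between Eµ-PRMT5/TCL1 and Eµ-PRMT5. DESeq2 called 843, 31 and 166 genes in these 3 comparisons (7.22%, 0.266% and 1.42%). Without Eµ-PRMT5 spleen 4, edgeR called 682 (5.83%), 0 (0.0%) and 20 (0.171%) genes. No member was called by edgeR in any class, tissue or comparison, over 33 changes tested, so the counts of members stand at the background. The standard errors of the receptor changes, 0.32 to 0.37 in spleens, limit what these numbers of mice can show, and a missed threshold does not show that the genotypes are alike.

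In lymph nodes, B-like cells had Tnfrsf13b at 209, 196 and 151 CPM in Eµ-TCL1 mice and at 266, 253, 87.3 and 154 CPM in Eµ-PRMT5/TCL1 mice. The difference was 0.08 ± 0.33 (log2, SE; edgeR, adjusted p = 0.978). Tnfrsf13c was at 312, 501 and 429 CPM in Eµ-TCL1 and at 789, 506, 367 and 395 CPM in Eµ-PRMT5/TCL1 nodes, a difference of 0.33 ± 0.29 (adjusted p = 0.867). This was 0.115 without Eµ-TCL1 node 1, 0.121 without Eµ-PRMT5/TCL1 node 1 and 0.656 with sex as a covariate. Neither receptor separated the genotypes, and 0.0% of 11202 genes were called (807 with an unadjusted p under 0.05, and 92, or 0.825%, by DESeq2).

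Within the 7 mice with both tissues, Tnfrsf13b in B-like cells was higher in the node in 5 mice and Tnfrsf13c in 2 mice. The changes from spleen to node were 0.13 ± 0.20 for Tnfrsf13b and -0.22 ± 0.20 for Tnfrsf13c (log2, SE; edgeR with mouse as a block, adjusted p of 0.864 and 0.753), with 0.0157% of 12720 genes called (2.11% by DESeq2). The tissue effect did not differ detectably between Eµ-PRMT5/TCL1 and Eµ-TCL1 mice, with differences of 0.03 ± 0.40 and 0.23 ± 0.40 for Tnfrsf13b and Tnfrsf13c and 0.0% of genes called (276 with an unadjusted p under 0.05, and 1, or 0.00786%, by DESeq2). In plasma-like cells, 3 mice allowed the comparison. Tnfrsf13b was higher in the node in 3 of 3, by 0.36 ± 0.24, and Tnfrsf13c changed by -0.0029 ± 0.22 (adjusted p of 0.872 and 0.997), with 0.121% of 9112 genes called (0.432% by DESeq2).

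Plasma-like cells were compared between genotypes only for Eµ-PRMT5 and Eµ-TCL1 spleens. Tnfrsf13b was at 151, 233, 257, 218 and 215 CPM in Eµ-PRMT5 spleens 1 to 5 and at 305, 260 and 178 CPM in Eµ-TCL1 spleens 1, 3 and 4. The fitted difference, after normalization for composition, was 0.41 ± 0.32 (log2, SE; edgeR, adjusted p = 0.710), of the opposite sign to the group means of 215 and 248 CPM. It was 0.030 with a stricter class gate and 0.647 without Eµ-TCL1 spleen 1. Tnfrsf13c was at 123, 116, 183, 280 and 191 CPM in Eµ-PRMT5 and at 332, 221 and 327 CPM in Eµ-TCL1 spleens, with a fitted difference of -0.17 ± 0.28 (adjusted p = 0.904). No gene of 6955 was called (0.0%, with 719 at an unadjusted p under 0.05 and 73, or 1.05%, by DESeq2).

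The ligands were compared in the myeloid classes where they were highest (the plot of ligands by genotype). Tnfsf13b in neutrophil-like cells varied within each genotype. Eµ-PRMT5 spleens 1 to 4 had 28.5, 33.2, 11.9 and 12.4 CPM, and spleen 5 had too few cells. Eµ-TCL1 spleens had 49.0, 41.9, 23.6 and 5.80 CPM, and Eµ-PRMT5/TCL1 spleens had 26.5, 54.8, 55.8 and 70.5 CPM. In 3 of the 4 Eµ-PRMT5/TCL1 spleens the value lay above every spleen of the other genotypes. The 70.5 CPM came from 53 cells and the 26.5 CPM from 32 cells. Tnfsf13b also differed between early and late neutrophil-like cells (see the closing observations), and the part of that mix was not tested. The difference from Eµ-PRMT5 was 1.48 ± 0.52 (log2, SE; edgeR, unadjusted p = 0.0115, adjusted p = 1.0), and that from Eµ-TCL1 was 0.73 ± 0.50. Leaving out Eµ-TCL1 spleen 1 moved the latter to 1.45, and leaving out spleen 4 of that genotype moved it to 0.387. The change from Eµ-TCL1 to Eµ-PRMT5 was -0.75, and over all alternatives it ran from -1.20 to -0.013, the latter without Eµ-TCL1 spleen 1. The difference from Eµ-PRMT5 therefore failed the correction over 7526 genes, of which 0.0% were called in each of the 3 comparisons and 220, 119 and 359 had an unadjusted p under 0.05, with 2 (0.0266%), 0 (0.0%) and 4 (0.0533%) called by DESeq2 (Eµ-PRMT5/TCL1 against Eµ-PRMT5, against Eµ-TCL1, and Eµ-PRMT5 against Eµ-TCL1).

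Tnfsf13 in monocyte/macrophage-like cells was at 105.1, 83.2, 65.7, 80.5 and 108 CPM in Eµ-PRMT5 spleens. Eµ-TCL1 spleens had 70.2, 107, 47.1 and 85.5 CPM, and Eµ-PRMT5/TCL1 spleens had 162, 89.3, 89.2 and 139 CPM. The difference between Eµ-PRMT5/TCL1 and Eµ-TCL1 was 0.57 ± 0.26 (log2, SE; edgeR, unadjusted p = 0.0461, adjusted p = 1.0), and the groups overlapped. The value of 162 CPM rests on 28 UMIs in 20 cells. Of 7814 genes 0.0% were called in each of the 3 comparisons, with 200 to 370 at an unadjusted p under 0.05 and 3 (0.0385%), 1 (0.0128%) and 0 (0.0%) called by DESeq2, in the order Eµ-PRMT5 against Eµ-TCL1, double-transgenic against Eµ-TCL1, double-transgenic against Eµ-PRMT5. In neutrophil-like cells Tnfsf13 differed by at most 0.32 ± 0.44 between genotypes. Between node and spleen of 3 mice, Tnfsf13 in monocyte/macrophage-like cells changed by 0.34 ± 0.22 (adjusted p = 0.629), with 0.174% of 6882 genes called (0.882% by DESeq2).

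**Figure D5:**
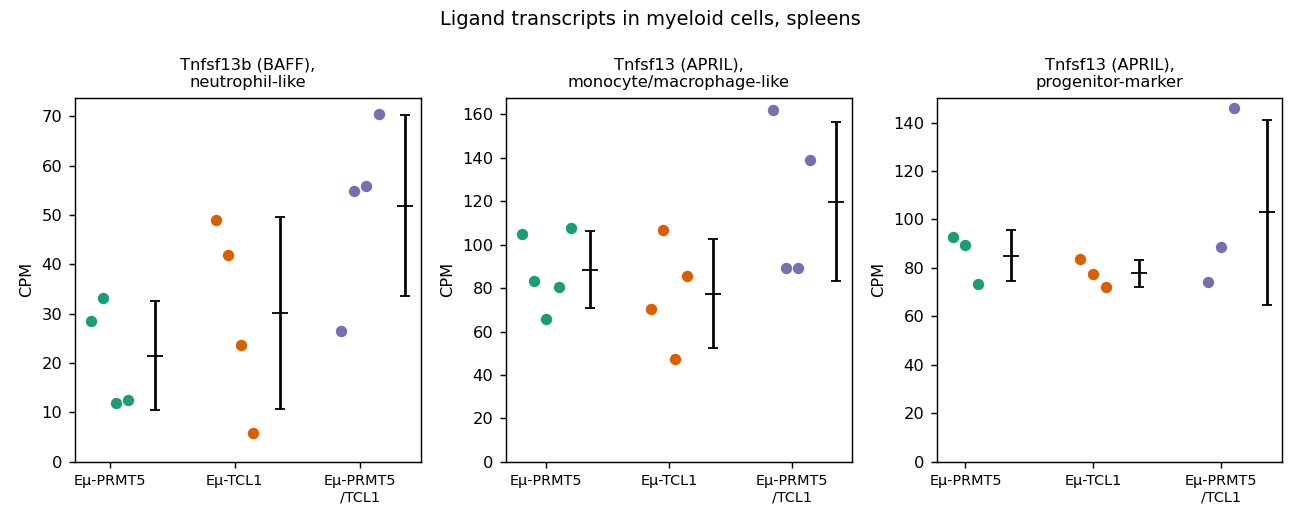
Tnfsf13b in neutrophil-like cells and Tnfsf13 in monocyte/macrophage-like cells of the spleens (CPM), with 1 point per library by genotype. Eµ-PRMT5/TCL1 spleens reached 70.5 CPM of Tnfsf13b and 162 CPM of Tnfsf13, and the lowest value of each gene, 5.80 and 47.1 CPM, came from an Eµ-TCL1 spleen.

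Tnfsf13b in B-like cells was low everywhere, but not equally so. Eµ-PRMT5 spleens 1 to 5 had 1.57, 1.11, 3.17, 3.15 and 0.241 CPM, from 12, 3, 26, 139 and 1 UMIs. Eµ-TCL1 spleens had 0.0750, 0.120, 1.37 and 0.0297 CPM, and Eµ-PRMT5/TCL1 spleens had 0, 0, 0.137 and 0.0525 CPM. Each Eµ-PRMT5 spleen was above each Eµ-PRMT5/TCL1 spleen, in a comparison where edgeR called 0.0% of all genes. The fitted difference was -5.11 ± 1.34 (log2, SE) for Eµ-PRMT5/TCL1 against Eµ-PRMT5, where 2 libraries at 0 make its size depend on the prior count. It did not pass with edgeR (unadjusted p = 0.00214, adjusted p = 0.318) and passed with DESeq2 (-5.24, adjusted p = 0.0155), which called 1.42% of the genes in this comparison. The gene passed the filter on low counts through the Eµ-PRMT5 spleens, where it is higher, while the Eµ-PRMT5/TCL1 spleens held 4 UMIs in all, so neither test adds support to the values themselves. Free RNA held Tnfsf13b at 0.261 to 3.45 CPM in Eµ-PRMT5 and at 1.20 to 4.10 CPM in Eµ-PRMT5/TCL1 spleens. The summed level of 11 neutrophil markers in B-like cells was 5.07 to 40.3 CPM in Eµ-PRMT5, 3.04 to 94.4 CPM in Eµ-TCL1 and 4.12 to 60.2 CPM in Eµ-PRMT5/TCL1 spleens, against at least 236889 CPM in neutrophil-like cells. Their part in the difference was not tested. Without Eµ-PRMT5 spleen 4 the difference was -4.62 (edgeR, adjusted p = 0.130). Tnfsf13 in B-like cells did not pass the filter on low counts in any comparison, and Tnfsf13b in monocyte/macrophage-like cells did not either.

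Beyond the 4 members, a list of 22 genes of the pathway was counted in B-like cells: the third receptor, the fusion ligand, adaptors and kinases of the receptors, the alternative NF-κB genes and genes known to respond to BAFF. Of these, 21 were found by symbol and 19 passed the filter in spleens. edgeR called 0 of them in each comparison of genotypes and of tissues. In spleens 4 (Eµ-PRMT5 against Eµ-TCL1), 0 (Eµ-PRMT5/TCL1 against Eµ-TCL1) and 4 (Eµ-PRMT5/TCL1 against Eµ-PRMT5) of the 19 had an unadjusted p under 0.05, to be read beside the 18.6%, 5.03% and 9.71% of all genes. Without Eµ-PRMT5 spleen 4 these were 4, 0 and 7 of 19, beside 28.4%, 7.35% and 19.4%. The median changes of the list were 0.31, -0.10 and -0.25 (log2), beside 0.02, -0.0004 and -0.05 over all genes tested, and 0.40, -0.10 and -0.41 without Eµ-PRMT5 spleen 4, beside -0.05, -0.0016 and 0.02. DESeq2 called 2 in each of the first and last comparisons, Fcer2a and Cr2, beside 7.22% and 1.42% of all genes.

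Fcer2a and Cr2 encode CD23 and CD21, surface proteins of mature B cells whose levels are known to depend on BAFF. The authors reported low Cd23 on circulating CLL-like cells of Eµ-PRMT5 mice. B-like cells here pool CLL-like and other B cells, and the part of that mix in the values below was not tested. Fcer2a in B-like cells was at 168, 37.3, 18.2, 0 and 15.4 CPM in Eµ-PRMT5 spleens, and at most 0.342 CPM in Eµ-TCL1 and 0.666 CPM in Eµ-PRMT5/TCL1 spleens. Cr2 was at 81.6, 11.1, 14.02, 0.0227 and 14.5 CPM in Eµ-PRMT5 spleens and at most 2.94 CPM in the others. The exception in both was Eµ-PRMT5 spleen 4, the library whose B-like cells stood apart in their B-cell markers. The differences from Eµ-TCL1 did not pass with edgeR (8.37 ± 1.75 and 4.25 ± 1.34, adjusted p of 0.0886 and 0.132). Fcer2a passed the filter on low counts through the Eµ-PRMT5 spleens, which held 1287, 101, 149, 0 and 64 UMIs against 1, 3, 6 and 1 in Eµ-TCL1 spleens, so the size of its change depends on the prior count and its calls add no support to the values themselves. Without Eµ-PRMT5 spleen 4, edgeR called 2 genes of the list, Cr2 and Fcer2a, against Eµ-TCL1, with 682 over all genes (5.83%) in place of 1, and Fcer2a for Eµ-PRMT5/TCL1 against Eµ-PRMT5, with 20 over all genes (0.171%). Without Eµ-PRMT5 spleen 5 it called 1 of the list, Fcer2a, against Eµ-TCL1, and 139 over all genes (1.18%). From spleen to node of the same mouse Fcer2a changed by 3.79 ± 0.68 (log2, SE; edgeR, adjusted p = 0.138), from at most 0.666 CPM in the spleens to 0.0824 to 18.9 CPM in the nodes. DESeq2 called it there, and in the tissue comparison of each genotype, beside 0.283% of all genes in Eµ-TCL1 and 0.527% in Eµ-PRMT5/TCL1 mice. The spleens of these mice held 21 UMIs of Fcer2a or fewer, and Eµ-TCL1 nodes 1 to 3 held 58, 5 and 2. The size of this change therefore also depends on the prior count, and these calls add no support to the values themselves.

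Tnfrsf17 did not pass the filter in B-like cells of the spleens. In those of the nodes it was at 0.976, 3.16 and 1.57 CPM in Eµ-TCL1 and at 0, 0.587, 1.18 and 0.206 CPM in Eµ-PRMT5/TCL1 mice (-2.14 ± 0.97, edgeR, adjusted p = 0.704). From spleen to node it changed by 2.07 ± 0.72 (adjusted p = 0.345). The summed level of the 8 plasma markers in these B-like cells was 2400 to 2775 CPM where the mice were Eµ-TCL1 and 821 to 2322 CPM where they were Eµ-PRMT5/TCL1, and its part in the result was not tested.

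The genes whose level followed each member most closely over 25 means of class and group were listed for description, with Pearson's r on log2(CPM + 10) over 8326 genes. For Tnfsf13b they were Gm16194, Prom1 and Fcnb (r of 0.946, 0.946 and 0.939), of which Fcnb encodes a lectin of granulocytes. For Tnfsf13 they were Csf1r, Mefv and Tgm2 (0.990, 0.990 and 0.987), for Tnfrsf13b Blnk, Serp1 and Mzb1 (0.970, 0.970 and 0.967), and for Tnfrsf13c AC133103.1, Fcmr and Bcar3 (0.986, 0.983 and 0.980). Csf1r, Blnk and Mzb1 are among the markers that defined the classes, and the means share libraries.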

How the data were processed

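Unselected live cells of 13 mice were profiled by 10x Genomics 3′ (v2) scRNA-seq. The deposited files hold whole-number UMI counts for each gene in every barcode, empty droplets included, which the authors made by alignment to GRCm38. The matrix headers name Cell Ranger 3.1.0, and the submitters' processing notes name Cell Ranger 2.0.1 and Seurat 2.2.1. Total counts per library were 9348094 to 72440894 UMIs. Gene positions were taken from GENCODE on GRCm38.

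Barcodes were called as cells above a 10th of the 99th percentile of the 3000 largest totals, with at least 500 UMIs and 200 genes and at most 10% mitochondrial UMIs. Of 87773 called cells, 3542 doublets were removed, the highest Scrublet scores (scanpy 1.11.5) at an expected 0.8% per 1000 cells, because the automatic threshold marked only 631. Of the kept cells, 74.0% to 97.6% per library were assigned to a class. B-like and T-like cells needed 5 UMIs of 3 markers, monocyte/macrophage-like cells 20 UMIs of 4 markers and neutrophil-like cells 50 UMIs. Each also needed at least 4 times the UMIs of the other lists, with 3 exceptions. Neutrophil-like cells needed only more UMIs of their own list than of the monocyte/macrophage list. No class was held to a ratio over the plasma list. The monocyte/macrophage genes Ctss and Cd68 were not counted against B-like, plasma-like and T-like cells. Cells with at least 10 UMIs of Mpo, Elane, Prtn3 and Ctsg were left unassigned. So were cells with at least 5 UMIs from 3 markers of natural killer, dendritic, erythroid, mast or basophil, platelet or stromal cells. Plasma-like cells held at least 0.8% plasma marker UMIs from 5 markers. Among monocyte/macrophage-like cells of the spleens, UMIs of the monocyte genes Ccr2 and Vcan outnumbered those of the macrophage C1q genes in 991 cells, and the reverse held in 144.

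Summed counts per library and class were tested over all genes with edgeR 4.0.16 (quasi-likelihood, TMM, filterByExpr, R 4.3.3), 3 libraries a group at least, and DESeq2 1.42.0 as an alternative, whose shares of called genes are of those it gave an adjusted p. A call was an adjusted p under 0.05. Each mouse is 1 sample. The test was tested on simulated data. No fit by genotype could be made for plasma-like, monocyte/macrophage-like or neutrophil-like cells of the nodes, for plasma-like cells of Eµ-PRMT5/TCL1 spleens, or for neutrophil-like cells between tissues. Mice were paired across tissues by the mouse numbers in the sample titles. The text names the 4 members, Tnfrsf17, the 3 genes most like each member, and any gene of the pathway list that a test called. The genes of the closing observations were chosen after their values were seen. Members and lists were chosen with earlier results of these data known. Intervals and floors cover counting error only.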

Additional observations from a re-analysis of the deposited data

Results flagged for a closer look

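Of 57 groups of 4 or 5 libraries, 16 held a library far from the others (Dixon's ratio), where chance flags about 1 in 20. Most of these levels rest on few UMIs.

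Of the receptors in myeloid cells, Tnfrsf13b in monocyte/macrophage-like cells of Eµ-PRMT5/TCL1 spleen 3 was at 15.7 CPM (26.7 to 28.9 in the others). Tnfrsf13c in monocyte/macrophage-like cells of Eµ-TCL1 spleen 2 was at 25.4 CPM (5.77 to 7.02 in the others), beside the highest summed B-cell markers, 895 CPM, whose part in the value was not tested. Tnfrsf13c in neutrophil-like cells was at 25.8 CPM in Eµ-PRMT5 spleen 1 (2.42 to 3.81 in the others) and at 0.965 CPM in Eµ-PRMT5/TCL1 spleen 2 (39.7 to 45.7 in the others). The summed B-cell markers in neutrophil-like cells were 28.9 CPM in that last spleen and 195 to 666 CPM in the other 3, and their part in the value was not tested.

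In T-like cells, Tnfrsf13c was at 50.6 CPM in Eµ-PRMT5 spleen 4, from 28 UMIs in 47 cells, where the summed B-cell markers were 99.4 CPM (13.3 to 22.4 in the group's other spleens). It was at 9.67 CPM in Eµ-PRMT5/TCL1 spleen 4 and 5.38 CPM in Eµ-PRMT5/TCL1 node 1. Tnfrsf13b was at 5.38 CPM in the same node, 0.886 CPM in Eµ-TCL1 spleen 2 and 12.0 CPM in Eµ-PRMT5/TCL1 spleen 1. Tnfsf13b was at 10.8 CPM in Eµ-PRMT5/TCL1 node 1, from 4 UMIs in 64 cells, and at 0.131 CPM in Eµ-PRMT5 spleen 5 (1.81 to 2.47 in the others). Tnfsf13 was at 0.167 CPM in Eµ-TCL1 spleen 1.

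In B-like cells, Tnfsf13b was at 1.37 CPM in Eµ-TCL1 spleen 3 (0.0297 to 0.120 in the others) and at 0.103 CPM in Eµ-PRMT5/TCL1 node 4. In plasma-like cells Tnfsf13 was at 0.536 CPM in Eµ-PRMT5 spleen 4, which is 1 UMI.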

How the results depend on the processing

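For the order of classes under other settings, 89 values kept direction and call, and 8 did not. With doublet-marked cells kept, Tnfrsf13b between monocyte/macrophage-like and neutrophil-like cells lost its call (0.45), and Tnfrsf13c between neutrophil-like and monocyte/macrophage-like cells gained one (1.15, log2(CPM + 10)). With a stricter class gate, Tnfsf13b between B-like and plasma-like cells gained a call (0.14), and Tnfsf13 between plasma-like and T-like (-0.0025) and Tnfrsf13c between monocyte/macrophage-like and T-like cells (-0.068) reversed. With at least 50 cells, Tnfsf13b between monocyte/macrophage-like and T-like cells gained a call (0.23), Tnfrsf13b between monocyte/macrophage-like and neutrophil-like cells lost it (0.75), and Tnfsf13 between plasma-like and T-like cells reversed (-0.0034). The cause was not tested.

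DESeq2 called 1 member by genotype in spleens (Tnfsf13b in B-like cells, -5.24) against 0 with edgeR, and made 4 calls of pathway genes by genotype in spleens (Cr2 and Fcer2a, in 2 comparisons each) and 1 in the comparison of tissues within mouse (Fcer2a, also called in the tissue comparison of each genotype). Over all genes DESeq2 called 263 (2.11%) within mouse, 36 (0.283%) in Eµ-TCL1 and 67 (0.527%) in Eµ-PRMT5/TCL1 mice. Without the filter on low counts edgeR also called 1 within mouse (Fcer2a), where calls over all genes rose from 2 to 63 (0.33%). With 1 library left out the pathway calls in spleens ran from 0 to 3. The summed shares of UMIs by class without each library, and the shares of cells with a receptor UMI without Eµ-PRMT5 spleen 4, were added after seeing the data, and the share of Tnfsf13b in B-like cells fell from 15.8% to 6.87% without Eµ-PRMT5 spleen 4. Shared replicate numbers were not taken to pair the mice, for which every same-numbered pair had to correlate above 0.1. Of the spleens, 5 of 12 same-numbered pairs did (-0.104 to 0.214, median 0.0705), and 6 of 44 other pairs (median -0.0146). With a replicate block, 0 members were called, while calls over all genes between Eµ-PRMT5 and Eµ-TCL1 spleens rose from 1 to 39 in B-like and from 0 to 49 in plasma-like cells.

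None of the member changes that reversed was called. Tnfrsf13b in B-like cells reversed with sex as a covariate (0.021, Eµ-PRMT5/TCL1 minus Eµ-TCL1 spleens) and, for the difference in tissue effect, with doublet-marked cells kept (-0.0070). Tnfrsf13c between tissues in plasma-like cells reversed with mouse left out of the fit (0.022). Tnfsf13 in neutrophil-like cells reversed with a block by replicate number (0.092, Eµ-PRMT5/TCL1 minus Eµ-PRMT5). Leaving out 1 library or mouse, changes in B-like cells between Eµ-PRMT5/TCL1 and Eµ-TCL1 ran from -0.255 to 0.0689 (Tnfrsf13b, spleen) and -0.0791 to 0.304 (Tnfrsf13b, node), and the difference in tissue effect from -0.214 to 0.355 (Tnfrsf13b) and -0.126 to 0.486 (Tnfrsf13c). From spleen to node they ran from -0.0447 to 0.214 (Tnfrsf13b) and -0.511 to 0.00519 (Tnfrsf13c) in Eµ-TCL1 mice, and from -0.0917 to 0.472 and -0.27 to 0.154 in Eµ-PRMT5/TCL1 mice. Tnfsf13 in neutrophil-like cells ran from -0.264 to 0.496 (Eµ-PRMT5 minus Eµ-TCL1), -0.377 to 0.368 (Eµ-PRMT5/TCL1 minus Eµ-PRMT5) and -0.0144 to 0.277 (Eµ-PRMT5/TCL1 minus Eµ-TCL1). Other uncalled receptor changes moved by over 1.5 times without reversing. Over all alternatives, Eµ-PRMT5 minus Eµ-TCL1 in B-like cells of the spleens ran from -0.532 to -0.103 (Tnfrsf13b) and -0.502 to -0.0793 (Tnfrsf13c), Eµ-PRMT5/TCL1 minus Eµ-PRMT5 from 0.0564 to 0.488 (Tnfrsf13b), and Eµ-PRMT5/TCL1 minus Eµ-TCL1 from 0.145 to 0.458 (Tnfrsf13c). Changes within mouse from spleen to node ran from 0.0151 to 0.294 (Tnfrsf13b) and -0.307 to -0.0578 (Tnfrsf13c) in B-like cells and from 0.107 to 0.363 (Tnfrsf13b) in plasma-like cells, where Tnfrsf13c between Eµ-PRMT5 and Eµ-TCL1 spleens ran from -0.357 to -0.0137. The tissue comparison of monocyte/macrophage-like cells could not be fitted with at least 50 cells.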

Other observations

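Birc2 and Birc3, which encode cIAP1 and cIAP2, are both in the pathway list as known restraints on the alternative NF-κB pathway downstream of BAFFR. They were singled out after their values were seen. In B-like cells of 1 Eµ-TCL1 mouse (Eµ-TCL1 spleen 2 and Eµ-TCL1 node 2) Birc2 was at 0.241 CPM in the spleen and 0.930 CPM in the node, and Birc3 at 0.391 and 2.23 CPM. In the other 18 libraries Birc2 was at 23.6 to 61.2 CPM and Birc3 at 25.4 to 189 CPM. T-like cells of the same spleen held 48.4 CPM of Birc2 and 75.0 CPM of Birc3, inside the range of the other libraries.

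Birc2 (chr9:7818227-7837064, GRCm38) and Birc3 (chr9:7848699-7873186) are neighbours, and the next expressed genes on one side behaved alike in this mouse. In its B-like cells Tmem123 (chr9:7764041-7794333) and Dcun1d5 (chr9:7184520-7208205) were each at 0.994 CPM in the spleen and 2.60 CPM in the node, against at least 74.0 and 119 CPM elsewhere. Dync2h1 (chr9:6928503-7184446) was at 0.0903 CPM in its spleen, against at least 2.75 CPM elsewhere. The 2 caspase genes beyond, Casp1 and Casp4, were also low, at 0.361 and 0.452 CPM, but reached as little as 0.700 and 0.906 CPM in other libraries. Farther out, Msantd4 was at 3.13 CPM (3.11 to 11.4 CPM elsewhere) and Kbtbd3 at 5.90 CPM (4.58 to 12.8 CPM elsewhere), both inside the range of the other libraries. Beyond them, Aasdhppt (chr9:4294793-4309471) was at 18.4 CPM against 20.6 to 48.9 CPM. T-like cells of this spleen held 131 CPM of Dcun1d5 and 189 CPM of Tmem123, so the gap was seen in B-like cells and not in T-like cells of the same library. With no DNA data, the state of the locus was not tested.

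In the same B-like cells the receptors were unremarkable, with Tnfrsf13b at 142 and Tnfrsf13c at 488 CPM in the spleen. Nfkb2, the precursor of an alternative NF-κB subunit, was at 198 CPM there, above 11 of the 12 other spleens (42.0 to 206 CPM), and Map3k14, the kinase known as NIK, was at 34.1 CPM, also above 11 of 12 (12.3 to 34.8 CPM). In the node Nfkb2 was above 4 and Map3k14 above 5 of the 6 others. Relb was above 9 of 12 spleens and 3 of 6 nodes. Traf2 and Traf3, adaptors that hold NIK in check together with the cIAPs, were at 67.9 and 31.9 CPM in the spleen, above 8 and 7 of 12, and in the node above 4 and 2 of 6. This is 1 mouse, and no test can be made.

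Among neutrophil-like cells, Tnfsf13b went with early granule genes. In the 7 spleens with enough cells of both kinds, cells in which early granule genes led held 37.2 ± 19.7 CPM (SD, n = 7), and cells in which late genes led held 4.60 ± 4.05 CPM (SD, n = 7), lower in 7 of 7. Tnfsf13 did not follow, at 16.6 ± 3.15 and 24.6 ± 24.05 CPM. In B-like cells, those with at least 3 UMIs of the cycling genes Mki67 and Top2a and those with 0 had Tnfrsf13b at 174 ± 36.02 and 165 ± 34.7 CPM and Tnfrsf13c at 501 ± 127 and 505 ± 143 CPM (SD, n = 9 spleens), and 5 of 9 spleens were higher in the cycling cells for each. These splits were made after seeing the data and were given no test.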
